A study of Mus musculus with 2 samples.

Results

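miR-1843b, miR-677 and miR-1291 are mouse miRNAs whose hairpins lie on top of small nucleolar or small Cajal body RNAs. Both arms of miR-1843b and miR-677 and the single listed miR-1291 were taken by name from the table of mature miRNA counts, which gives 5 members among the 117 miRNA species with a count and the 1915 mouse species listed. All 5 were counted in EVs from sedentary mice (sEVs), and only the 2 arms of miR-677 in EVs from exercised mice (eEVs). The EVs came from plasma of wild type C57BL/6 mice, 8 weeks old on normal chow, that either remained sedentary or ran on a treadmill for 60 min to exhaustion, at 10 m/min rising to 24 m/min, after an acclimation period. About 10 ml of plasma from 20 mice was pooled per group and EVs were isolated by size exclusion, so each group is 1 small RNA library. No spread between animals can be had from pooled mice and 1 library per group.

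Small nucleolar RNAs (snoRNAs) and small Cajal body RNAs (scaRNAs) guide the chemical modification of ribosomal and spliceosomal RNA, and most in mammals are cut from introns of protein-coding genes. Box C/D RNAs carry a C box near the 5′ end and a D box near the 3′ end and direct 2′-O-methylation, whereas box H/ACA RNAs end in an ACA box and direct pseudouridylation. Some of these RNAs are cut further into pieces of miRNA size, and several entries of the miRNA catalogue overlap them. A miRNA binds its targets mainly through its seed, bases 2 to 8 from the 5′ end.

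The mature sequences are shown because the counts below refer to them, and because they place each member in its parent RNA. They are those of RefSeq for GRCm38.p6, 5′ to 3′, with the seed in capitals.
mmu-miR-1843b-5p: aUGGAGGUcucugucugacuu
mmu-miR-1843b-3p: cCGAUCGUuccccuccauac
mmu-miR-677-5p: uUCAGUGAugauuagcuucuga
mmu-miR-677-3p: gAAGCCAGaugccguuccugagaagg
mmu-miR-1291: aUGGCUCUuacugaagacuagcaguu
No seed was shared between members, and none was found at bases 2 to 8 of any other of the 1679 mouse mature miRNAs of that table. The longest run of bases common to any pair of members was 6.

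The Mir1843b hairpin lies at chr1:159340358-159340423 of GRCm38 on the plus strand, in an intron of Cop1, which encodes a ubiquitin ligase. Of its 66 bases, 65 are the 3′ part of Scarna3a, a scaRNA of 140 bases at chr1:159340283-159340422. The Mir677 hairpin lies at chr10:128085286-128085363 on the plus strand, in an intron of Atp5b, the gene of the β subunit of mitochondrial ATP synthase. The GENCODE M21 annotation also lists 72 of its 78 bases, chr10:128085289-128085360, as a snoRNA of the same name. The Mir1291 hairpin lies at chr15:98519762-98519878 on the minus strand, in an intron of Kansl2, which encodes a subunit of a histone acetyltransferase complex. It overlaps Snora34, a snoRNA of 138 bases at chr15:98519716-98519853, by 92 bases. No exon of a protein-coding gene overlapped any of the 3 hairpins. The annotation thus places every member on such an RNA, the trait by which the members were picked. As each arm lies within its overlapping RNA on the same strand, its mature sequence is also found there letter for letter. Such overlap was found for 24 of the 2207 miRNA genes annotated in GENCODE (1.09%), and for 15 of the 117 species detected here (12.8%), the members included. The latter share counts mature arms, not genes, and its 15 species come from 9 hairpins, with the 2 copies of Mir3084 counted once.

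The overlapping RNAs are shown to place the arms within them, as DNA letters of the GENCODE M21 transcripts with the mature miRNAs in capitals.
Scarna3a: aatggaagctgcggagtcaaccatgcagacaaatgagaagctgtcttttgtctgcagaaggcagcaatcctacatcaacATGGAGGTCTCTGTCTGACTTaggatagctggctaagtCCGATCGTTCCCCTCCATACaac
Mir677 snoRNA: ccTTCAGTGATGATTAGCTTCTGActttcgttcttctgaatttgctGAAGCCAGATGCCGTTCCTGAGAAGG
Snora34: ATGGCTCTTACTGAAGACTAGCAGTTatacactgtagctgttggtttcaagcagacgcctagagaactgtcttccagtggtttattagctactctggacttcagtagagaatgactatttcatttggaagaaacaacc
Several of the mature miRNAs lie at an end of these RNAs. miR-1291 is bases 1 to 26 of Snora34, miR-677-5p starts at base 3 of its snoRNA and miR-677-3p ends at the last, base 72. miR-1843b-3p ends at base 137 of the 140 of Scarna3a, whereas its 5p arm, bases 80 to 100, is internal.

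**Figure D1:**
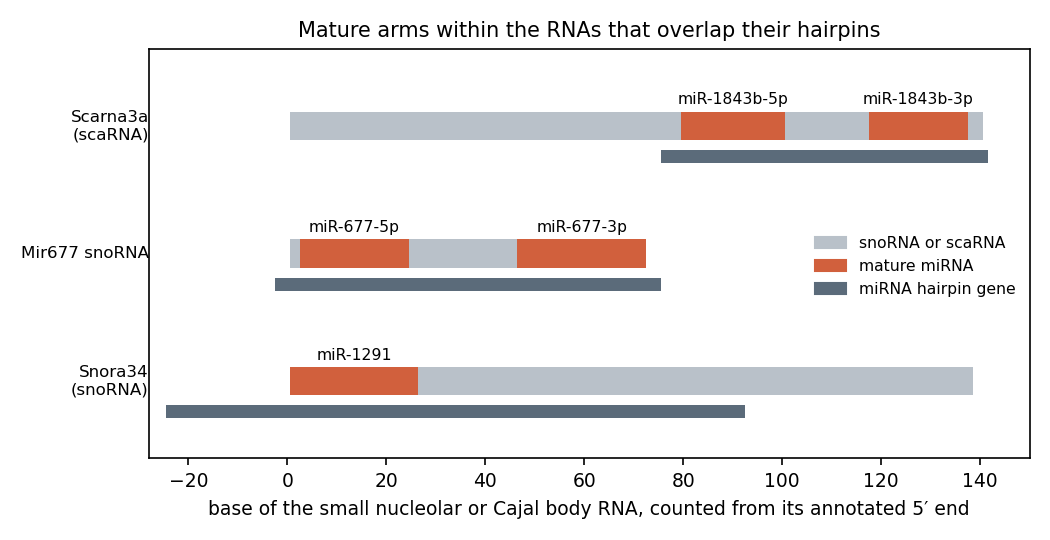
Position of the mature miRNAs (orange) and of the annotated hairpin genes (dark bars) on the overlapping scaRNA or snoRNA (grey), in bases from its 5′ end. miR-1291 begins at base 1 of Snora34, and the arms of miR-677 reach from base 3 to base 72 of a 72-base RNA.

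The box motifs of these classes were searched on the sense strand only. UGAUGA, the core of the C box, was found in the first 15 bases and CUGA, the D box, in the last 15 bases of the Mir677 snoRNA, at bases 8 to 13 and 64 to 67. Both are in capitals here, in RNA letters.
Mir677 snoRNA, boxes: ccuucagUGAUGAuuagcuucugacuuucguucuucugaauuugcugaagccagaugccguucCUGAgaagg
The C box letters fall within miR-677-5p and the D box letters within miR-677-3p. The same pair of motifs was present in 299 of 1558 annotated snoRNAs and scaRNAs (19.2%). UGAUGA was found anywhere in 12 of the 1679 mature sequences (0.715%). Snora34 held ACANNN as its last 6 bases, as did 301 of the 1558 RNAs (19.3%). Scarna3a did not hold it as annotated. The Mir1843b hairpin, which runs past the annotated end of Scarna3a, does match ACANNN in its last 6 bases. These matches describe the letters and are not evidence of a working box.

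The Mir677 hairpin was predicted to fold less stably than most mouse hairpins. Its minimum free energy, from RNAfold, was -17.5 kcal/mol or -0.22 kcal/mol per base, and only 20 of 1005 RefSeq hairpins (1.99%) were less stable per base. Per base, the Mir1291 hairpin was at -0.32 kcal/mol and the Mir1843b hairpin also at -0.32 kcal/mol, with 16.5% and 19.5% of hairpins less stable. The median of all hairpins was -0.41 kcal/mol per base. In the predicted fold of Mir1843b, 12 of the 21 bases of the 5p arm paired with the 3p arm (57.1%), a lower share than in all but 25 of 644 hairpins with both arms annotated. For Mir677, 15 of 22 bases did (68.2%), against a median of 73.9%.

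**Figure D2:**
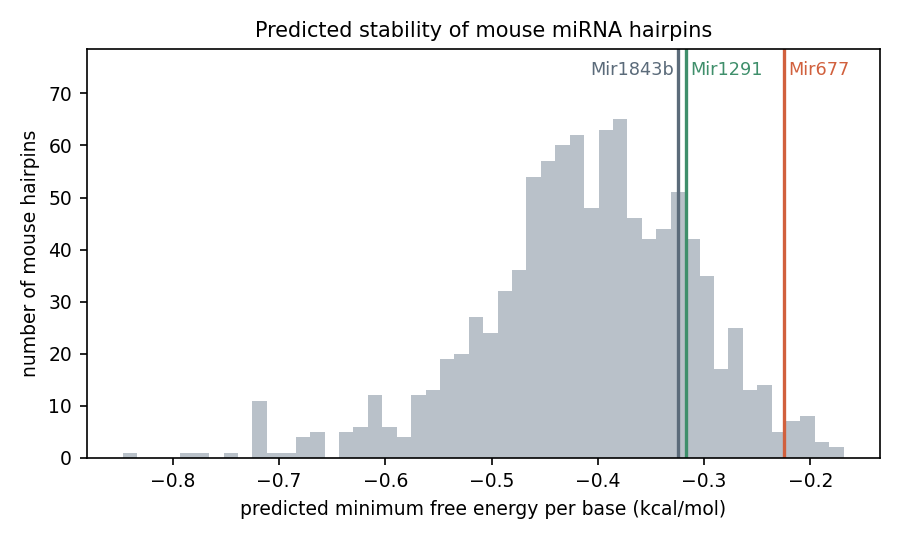
Histogram of the predicted minimum free energy per base (kcal/mol, horizontal) of 1005 mouse hairpins (number of hairpins, vertical), with lines at Mir1843b, Mir1291 and Mir677. Mir677 lies near the unstable end at -0.22, where 1.99% of hairpins lie beyond it.

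The libraries were shallow and unequal, with 2851 miRNA counts in sEVs and 820 in eEVs, a ratio of 3.48. A species with 0 counts is taken to have had up to 3, which allows a share of up to 0.105% in sEVs and 0.366% in eEVs. All intervals are at 95% and, like these limits and the p-values, cover counting error only, since each group has 1 library. They treat every count as independent, which cannot be checked because the reads carry no molecular identifiers. The shares of blood cell, liver and muscle markers in the libraries were as follows, with no test of the lists. The 6 red cell miRNAs examined held 1.19% of the sEV counts (2 detected) and 4.39% of the eEV counts (1 detected), with miR-144 and miR-486 at 0. The 2 detected were miR-451a, with 27 counts in the sEV and 36 in the eEV library, and miR-16-5p, with 7 and 0. The 5 white blood cell miRNAs held 5.82% (4 detected) and 2.68% (3 detected), with miR-146a-5p at 0. The 4 platelet miRNAs held 1.47% (4 detected) and 1.22% (1 detected), and did not move together. miR-191-5p had 14 counts in the sEV and 10 in the eEV library. miR-126a-3p, miR-21a-5p and miR-223-3p had 14, 9 and 5 counts in the sEV library and 0 in the eEV library. The arms of miR-122, the liver miRNA, summed to 20 counts in the sEV library and 0 in the eEV library, and the 4 muscle miRNAs were at 0 in both. The part of these cells in the results below was not tested.

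The first question was whether the members took the same share of the miRNA counts in both libraries. They took less in eEVs: the 5 species held 236 counts in sEVs, 8.28% of that library (Wilson interval 7.32% to 9.35%), and 20 in eEVs, 2.44% (1.58% to 3.74%). When miR-677, whose arms had the same counts, was counted once, the sums were 158 counts or 5.54% (4.76% to 6.44%) and 10 counts or 1.22% (0.664% to 2.23%). These sums are a description, because the members were chosen with earlier results known. A lower share in the EV pool can come from fewer vesicles that carry an RNA, from less RNA per vesicle or from a rise in other species. These cannot be told apart here.

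miR-1843b was counted in sEVs only. The 5p arm had 35 counts in sEVs, a share of 1.23% (0.884% to 1.70%), and 0 in eEVs, where 10.1 counts would have stood at an equal share. The 3p arm had 32 counts in sEVs, a share of 1.12% (0.796% to 1.58%), and 0 in eEVs, with 9.20 at an equal share. Both arms were thus abundant enough in sEVs for an equal share to have shown in the shallower library. With the sEV count taken as it stands and 3 counts allowed in eEVs, the 5p arm was 3.36-fold lower in eEVs. Its exact interval, which also covers the counting error in sEVs, places the share in eEVs only at or below 0.386 times that in sEVs. For the 3p arm these values were 3.07-fold and 0.425 times.

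Fisher's exact test (two-sided) of each species against the rest of its library, with Benjamini-Hochberg adjustment over all 117 species, gave an adjusted p of 0.00827 for miR-1843b-5p and 0.0100 for miR-1843b-3p. This test compares 2 libraries and not exercised with sedentary mice. The miR-1843b arms were the only 2 of the 5 members called lower in eEVs, where 4.27% of all species tested were called lower and 23.1% were called in either direction. At an unadjusted p under 0.05, 4 of the 5 members were lower, against 7.69% of all species. These were both arms of miR-1843b and both of miR-677, and the miR-677 arms had identical counts. At a 2-fold threshold, the same 4 of the 5 members were lower, against 14.8% of the 61 species with more than 3 counts in a library. These background shares are not matched for depth, as many species had too few counts in sEVs to be called lower. Against 3 counts, miR-122-5p, with 16 counts in sEVs and 0 in eEVs, came out only 1.53-fold lower. The exact test of edgeR was run with an assumed coefficient of variation between replicate libraries. At 0.4, neither arm of miR-1843b kept its call (adjusted p = 0.398 for each). Over all alternatives the adjusted p ranged from 0.00339 to 0.398 for 5p and from 0.00410 to 0.398 for 3p.

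miR-677 was counted in both libraries and was among the more abundant species. Each arm had 78 counts in sEVs, a share of 2.74% (2.20% to 3.40%), which tied for rank 5 in that library. In eEVs each arm had 10 counts, a share of 1.22% (0.664% to 2.23%) and rank 9. The share in eEVs was 0.446 times that in sEVs, with an exact interval of 0.206 to 0.864, or a log2 fold change of -1.17 (-2.28 to -0.21). The interval excludes an equal share, but Fisher's exact test with adjustment over all species gave p = 0.0528, just above the threshold (unadjusted p = 0.0131). The adjusted p was 0.0464 without the most abundant species in the totals and 0.0484 when adjusted over the species with 5 or more counts, and it ranged up to 0.721 over the alternatives.

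miR-1291 had 13 counts in sEVs, a share of 0.456% (0.267% to 0.779%), and 0 of 820 in eEVs. At an equal share, eEVs would have held 3.74 counts, close to the limit of 3. The exact interval of its fold change reaches 1.14 and so includes no change, and the adjusted p in Fisher's exact test was 0.229 (0.142 to 0.428 over the alternatives). A difference in miR-1291 was not detectable at this depth.

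**Figure D3:**
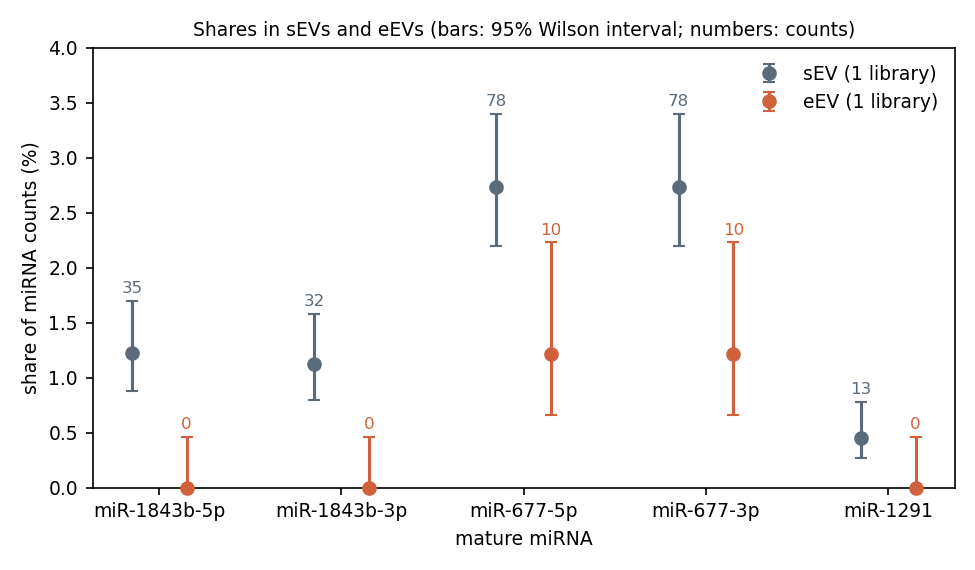
Share of all miRNA counts (%, vertical) of each member in the sEV and the eEV library, with 95% Wilson intervals as bars and the counts as numbers. The intervals of sEVs and eEVs do not overlap for the miR-1843b arms, overlap narrowly for miR-677 (2.20% against 2.23%) and overlap for miR-1291 as well.

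All 5 members had a lower share in eEVs, which 60.7% of the detected species also had. Since a species that is well counted in the deeper library is more often seen to be lower, the members were also set beside the 29 species with 10 or more counts in sEVs, members included. Of these, 86.2% had a lower share in eEVs and 27.6% had 0 counts there. Against 3 counts where a library had fewer, the log2 fold change had a median of -1.17 over the members and -0.20 over the other 24 species with 10 or more counts in sEVs. With 1 count added to every species instead, the medians were -2.14 and -0.64, so their size depends on how counts of 0 are treated. Over all 61 species with more than 3 counts in a library, the median against 3 counts was 0.58, but 28 of these had 0 counts in eEVs and their values are set by that limit.

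**Figure D4:**
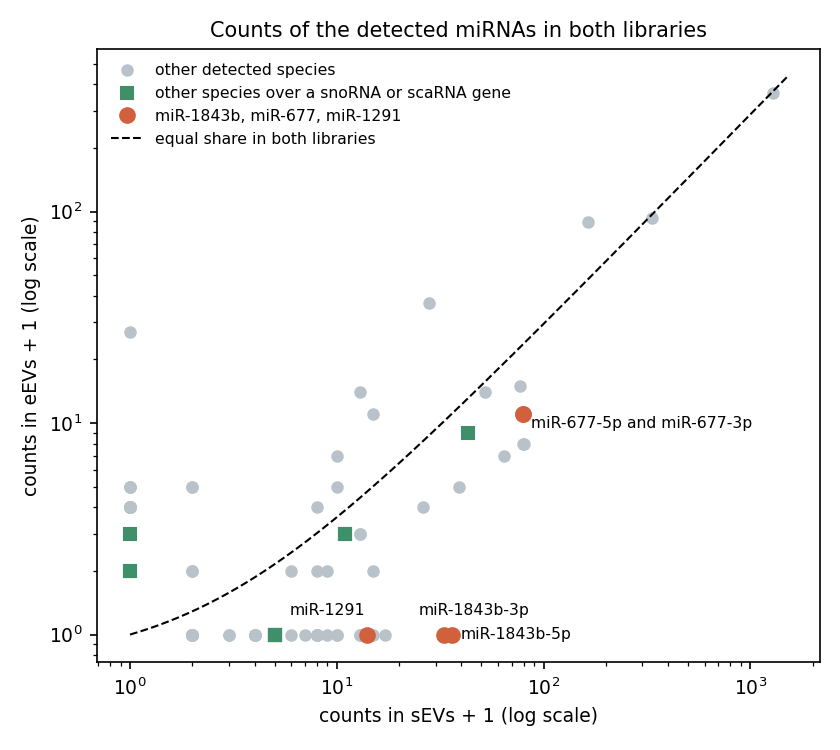
Counts in sEVs (horizontal) and eEVs (vertical) of the 117 detected miRNAs, each with 1 added, on log axes; the dashed line marks an equal share in both libraries. The 5 members (orange) lie below the line, as do 20 of the other 24 species with 10 or more counts in sEVs; green squares are other species over a snoRNA or scaRNA gene.

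The species nearest to the members were sought by the distance in log2 share, with 1 count added, summed over the 2 libraries. Nearest to both miR-677 arms were miR-690, with 78 counts in sEVs and 7 in eEVs (distance 0.46), and miR-142a-5p, a miRNA of white blood cells, with 79 and 7 (0.48). miR-872-3p had the same counts as miR-1291, 13 and 0, and miR-126a-3p, known from endothelium, had 14 and 0. The miR-1843b arms had no close neighbour, as the nearest species, miR-122-5p with 16 and 0 counts, was 1.08 away from the 5p arm and 0.96 from the 3p arm.

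The second question was whether the ratio of the arms differed. The miR-1843b arms were close to equal in sEVs, with 35 counts on 5p and 32 on 3p, a 5p share of 52.2% (exact binomial interval 39.7% to 64.6%), and no ratio exists in eEVs. The miR-677 arms had identical counts in both libraries, 78 and 78 in sEVs and 10 and 10 in eEVs, a 5p share of 50.0% in each. Identical arms were not particular to miR-677. Of the 58 hairpins with both arms listed and a count, 22 (37.9%) had the same counts on both arms in both libraries, and 26 had counts on 1 arm only. After miR-677, the highest were miR-345, with 12 counts per arm in sEVs and 2 in eEVs, and miR-101b, with 12 and 0, which tied in total with miR-3068. Among the 20 hairpins with both arms counted in sEVs, 13 were identical, and the 5p share of the other 7 ran from 39.1% (miR-126a) to 80.0% (miR-122).

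Whether identical arms were counted from the same reads cannot be told from the table, so the arm ratio of miR-677 was not tested between libraries and its arms are not independent evidence. The distance from the first base of the 5p arm to the last of the 3p arm is 70 bases in Mir677 and 58 in Mir1843b, longer than the 50-base reads. It was longer than a read in all 20 identical hairpins with annotated positions, at 55 to 84 bases, and in all 43 hairpins with positions for both arms. Of the 7 other hairpins for which Fisher's exact test of the arm ratio could be computed, 4 had too few counts to reach an unadjusted p under 0.05. In this exact test, none of the 7 had an adjusted p under 0.05, and 1 had an unadjusted one, miR-126a, with a 5p share of 39.1% in sEVs and 100% in eEVs (p = 0.0169, adjusted p = 0.118).

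**Figure D5:**
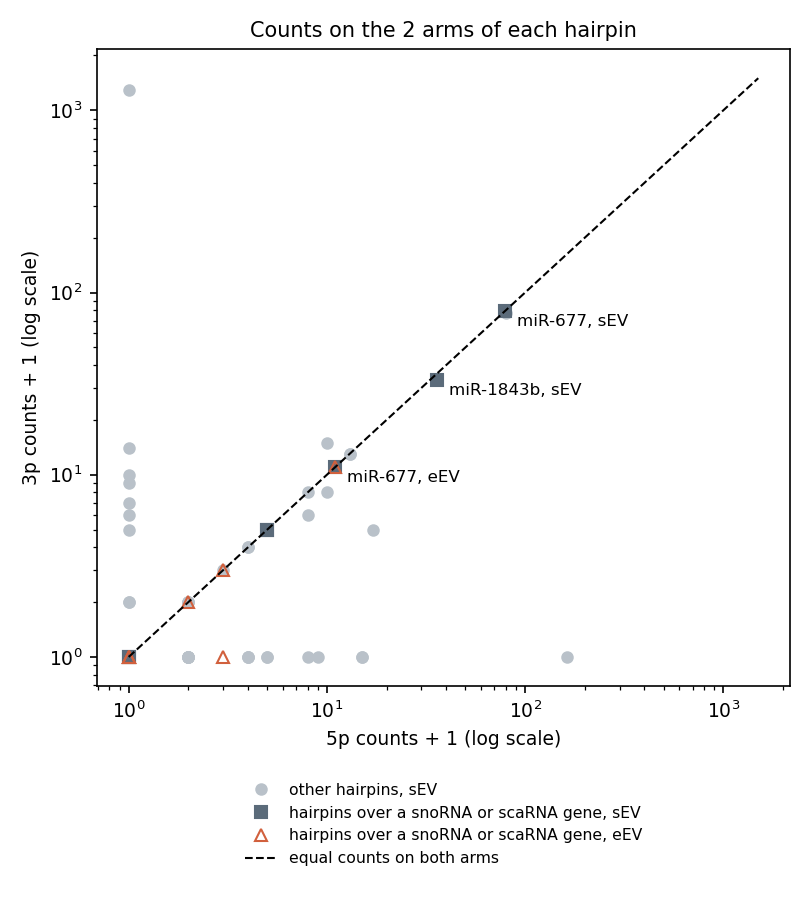
Counts on the 5p arm (horizontal) and 3p arm (vertical) of each hairpin with both arms listed, each with 1 added, on log axes; grey circles are other hairpins in sEVs, and squares (sEV) and open triangles (eEV) are hairpins over a snoRNA or scaRNA gene. miR-677 lies on the line of equal counts in both libraries and miR-1843b just below it, at 35 and 32.

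miR-1843b has a near copy, miR-1843a, on chromosome 12 at chr12:80391613-80391677 (minus strand) within Scarna3b. Their hairpins are identical at 59 of 65 aligned bases. The mature sequences are shown with their seeds in capitals, as the copy starts 1 base earlier on the 5p side and so has another seed.
mmu-miR-1843a-5p: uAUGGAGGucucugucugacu
mmu-miR-1843a-3p: uCUGAUCGuucaccuccauaca
The 5p arms share 20 of 20 aligned bases and the whole of miR-1843b-5p is also present in the Mir1843a hairpin, so reads of the 5p arm can be assigned to either locus. In all, 5 annotated genes hold this sequence, including Scarna3a and Scarna3b. The 3p arms differ at 2 of 20 aligned bases, and miR-1843b-3p was found only in Mir1843b and Scarna3a among annotated transcripts. Each arm of miR-1843a had 4 counts in sEVs and 0 in eEVs, for which no fall is detectable at this depth. The 3p arm of miR-1843b, which tells the loci apart, is the one with 32 counts in sEVs and 0 in eEVs.

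The exact sequences of the other members were less widely shared. Both arms of miR-677 and miR-1291 were each found in 2 annotated genes, the hairpin and the overlapping snoRNA. Snord59a, a snoRNA in another part of Atp5b, shares 18 bases with the Mir677 hairpin, at hairpin bases 25 to 42. Snora2b, in Kansl2, and 5 further snoRNAs share 19 bases with the Mir1291 hairpin, at bases 61 to 79, outside the mature miRNA at bases 26 to 51.

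Other detected species also lay over such RNAs. By the overlap of genes on the same strand, 15 detected species from 9 hairpins (the 2 copies of Mir3084 counted once) lay on a snoRNA or scaRNA. The 10 that are not members held 78 counts in sEVs, 2.74% (2.20% to 3.40%), and 16 in eEVs, 1.95% (1.20% to 3.15%), and none was called in either direction (Fisher's exact test, adjusted; 1 at an unadjusted p under 0.05, and 0 in edgeR's exact test at any assumed variation). The most abundant was miR-3535, which lies within the snoRNA Gm24148. Its 42 counts made up 1.47% of the sEV library (1.09% to 1.99%) and its 8 counts 0.976% of the eEV library (0.495% to 1.91%), with an adjusted p of 0.654 in Fisher's exact test. The arms of miR-3068 had 10 counts each in sEVs and 2 each in eEVs, where 2.88 would have stood at an equal share. Those of miR-1839 had 4 and 0. Both arms of miR-3069, over Scarna13, had 0 counts in sEVs and 1 in eEVs, and miR-3084-5p, which has a hairpin over each of the snoRNAs Gm23658 and Snora19, had 0 and 2. miR-664, a name known from overlap with a snoRNA in other species, was listed with 0 counts on both arms. Of the 7 hairpins over such RNAs with both arms listed and a count, 5 had identical arms, against 17 of the other 51 (33.3%). A further 3 species, miR-466i-5p, miR-466q and miR-466k of a repeat-rich family, met the wider definition by sharing at least 18 bases with the snoRNA Gm22009. For miR-466i-5p the counts were 162 in the sEV and 88 in the eEV library, and its share was higher in eEVs (adjusted p = 5.3e-05, Fisher's exact test), where 18.8% of all species were called higher. In the exact test of edgeR this call was lost at assumed coefficients of variation of 0.2 (adjusted p = 0.275) and 0.4 (0.594).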

How the data were processed

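Small RNA libraries (TruSeq kit, single-end reads of 50 bases) were made from RNA of EVs isolated by size exclusion from pooled plasma, 1 library per group. The authors deposited raw counts of reads per mature miRNA and a table of fractions of each library's total miRNA counts, with no replicate. The aligner, miRNA release and genome build are not given in the sources used here. The 1915 mouse columns were used and 67 columns under other names were not. A species was detected at 1 count. Fold changes are the share in eEVs over that in sEVs, with exact binomial intervals given the total of the pair, and against 3 counts where a library had fewer. With 1 library per group, no dispersion can be estimated, so each species was compared by Fisher's exact test with Benjamini-Hochberg adjustment (threshold 0.05). The test was tried on simulated libraries with counting error only and no variation between replicates, so its use beyond counting error was not tested. Hairpins were taken from RefSeq (GRCm38.p6; 99 of 117 species matched by name) or by symbol from GENCODE M21 (none for 3 species), and positions are those of the annotation. A species was called snoRNA-related where its hairpin gene overlapped a snoRNA or scaRNA gene on the same strand, or shared a run of at least 18 bases with one. The species named are the members, all species that met this definition, miR-664, miR-1839 and miR-1843a, those sharing a seed, the 2 nearest to each member, the 3 highest hairpins with identical arms, and blood cell, liver and muscle markers; miR-126a as a hairpin was named after its values were seen. The members and lists were chosen with earlier results of these data known. Python 3.11.15, scipy 1.17.1, R 4.3.3, edgeR 4.0.16, DESeq2 1.42.0 and RNAfold 2.7.2 were used.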

Additional observations from a re-analysis of the deposited data

How the results depend on the processing

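Of 98 recomputed values, 77 kept their direction and side of the threshold, or, where no test was made, stayed within the counting interval or near the first number of species. That covers large moves in size where eEVs had 0 counts: with 0.5 added in place of the limit of 3, the log2 fold change was -4.42 for miR-1843b-5p, -4.29 for miR-1843b-3p and -3.03 for miR-1291. Size factors of DESeq2 raised every log2 fold change by 0.52, and TMM factors by 0.17. With the former, the log2 fold changes against 3 counts were -1.22 for miR-1843b-5p and -1.09 for miR-1843b-3p. That of miR-1291, also against 3 counts, turned to 0.21, while miR-677 stayed lower at -0.64. Both miR-1843b arms lost their call at an assumed biological coefficient of variation of 0.4 (adjusted p = 0.398, edgeR's exact test), and both miR-677 arms gained one over species with 5 or more counts (0.0484) or without the most abundant species (0.0464). In edgeR's exact test at assumed variations of 0.1, 0.2 and 0.4, the species called lower in eEVs fell from 5 to 2, 2 and 0 (5 at an unadjusted p under 0.05 in the last) and those called higher from 22 to 3, 2 and 1. Those called higher were 6 over species with 5 or more counts, where fewer were tested. The cause of the other changes was not tested. The snoRNA-related species held 16.8% of sEV counts and 15.2% of eEV counts. By gene overlap only, they held 11.0% and 4.39%, as miR-466i-5p drops out. Without Mir1843b they held 14.4% in sEVs and 15.2% in eEVs, and without Mir677 11.3% and 12.8%, so that leaving out either makes the share in eEVs the larger (untested). Depth limits the species with 0 counts in eEVs: the exact interval excluded an equal share at 16 counts in sEVs but included it at 14 and below. No paired analysis was possible because each group has 1 library.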
